A study of Mus musculus with 24 samples.

Results

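A group of 9 calcium-binding and calcium-handling genes, of 22889 entries in the deposited table, was followed through 4 groups of sorted mouse cells. The group held the classical calcium buffers *Calb1*, *Calb2* and *Pvalb*, the neuronal calcium sensors *Hpcal1*, *Hpcal4* and *Ncald*, the kinase subunit gene *Camk2a*, the actin regulator gene *Cald1* and the membrane tether gene *Esyt1*. *Hpcal1*, *Cald1*, *Esyt1* and *Camk2a* were included because the study names them as higher in GFP-positive oculomotor neurons than in GFP-positive spinal motor neurons. Their values in that comparison were therefore used to choose them and are given here as a description, with no test: the genes were chosen by their RPKM in these 2 groups. The other 5 were chosen by name, with their values in the series known.

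Oculomotor neurons were derived from mouse embryonic stem cells (mESCs) with an *Islet1*-GFP reporter that also carried the NesEPhox2a construct, with *Phox2a*, a transcription factor gene of the oculomotor nucleus, under the nestin enhancer, which is active in neural progenitors. Spinal motor neurons were derived from an mESC line with an *Hb9*-GFP reporter. Both cultures grew as embryoid bodies and were patterned for 5 days with SAG, which activates hedgehog signaling. In oculomotor cultures SAG was used at 250 nM together with FGF8 at 100 ng/ml, and in spinal cultures at 500 nM together with retinoic acid at 100 nM. Cell line, reporter and patterning factors changed together, so they cannot be told apart as sources of a difference between the cultures. GFP-positive and GFP-negative cells of each culture were sorted on the day the embryoid bodies were dissociated. This gave 4 groups of 6 samples labelled as control, and poly(A) RNA was sequenced. Levels are given as RPKM, the reads on a gene divided by its transcript length and by the mapped reads of the sample, which allows levels to be compared between genes, and differences are given on the scale of log2(RPKM + 1), which understates changes of genes near or below 1 RPKM. Whether the 6 samples of a group came from separate cultures is not stated in the labels, so p values measure the spread between these samples.

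Calcium acts inside neurons as a short-lived signal. Buffers with EF-hand loops, such as calbindin, calretinin and parvalbumin, bind it as it enters, sensors of the hippocalcin and visinin-like family move to membranes when they bind it, and calmodulin passes it on to kinases, phosphatases and actin regulators. Oculomotor neurons are known for their content of calcium buffers, and spinal motor neurons for low amounts of them. At contacts between the endoplasmic reticulum (ER) and the plasma membrane, calcium stores are refilled and lipids are exchanged.

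The estimated depth ran from 748284 to 7608204 reads per sample, with a median of 2825198 in replicates 1 to 4 and of 6962072 in replicates 5 and 6. The study used sequencers of different models and read lengths, and the labels used here do not assign samples to them. Replicates 1 to 4 and replicates 5 and 6 may therefore differ in more than depth. The sorted groups carried their reporters' markers. *Isl1* was at 249 ± 77.8 RPKM in GFP-positive and 1.20 ± 0.405 in GFP-negative oculomotor cells, and *Mnx1*, the gene of HB9, was at 97.7 ± 44.0 RPKM in GFP-positive and 14.0 ± 27.2 in GFP-negative spinal cells (mean ± SD, n = 6 here and throughout). In GFP-positive cells 4 oculomotor markers summed to 290 to 568 RPKM in oculomotor and 0.374 to 25.6 RPKM in spinal samples, and 5 spinal motor neuron markers to 1.27 to 10.8 and 79.5 to 593 RPKM. The summed level of 6 neuronal markers was 1172 to 1722 RPKM in GFP-positive oculomotor samples and 68.3 to 1717 RPKM in GFP-positive spinal samples, lowest in spinal GFP-positive replicate 4. That of 6 pluripotency markers was 0.315 to 259 RPKM in GFP-positive oculomotor, 684 to 9876 RPKM in GFP-negative oculomotor, 14.4 to 12400.1 RPKM in GFP-positive spinal and 74.4 to 5785 RPKM in GFP-negative spinal samples. In spinal replicate 4 the neuronal sum was 68.3 RPKM in the GFP-positive and 80.9 RPKM in the GFP-negative sample. There 6 motor neuron markers summed to 21.8 and 23.7 RPKM and the pluripotency markers to 5142 and 5785 RPKM. Neuronal and motor neuron markers were thus not enriched in the GFP-positive sample of this pair, which is counted among the spinal pairs below. The highest pluripotency sum lay in spinal GFP-positive replicate 5, at 12400.1 RPKM against 342 RPKM in its GFP-negative sample. GFP-positive sums were also higher in spinal pairs 1 (716 against 120 RPKM), 2 (469 against 114) and 6 (1130 against 393), and lower in pairs 3 and 4. Most of the sum in GFP-positive spinal samples was *Dppa5a*, at 3239 ± 4785 RPKM. Spinal GFP-negative replicate 4 carried *Mnx1* at 69.4 RPKM. In spinal GFP-negative replicate 2 the 10 highest genes held 76.3% of the summed RPKM. These were bulk samples, in which fewer cells of a type and less RNA per cell cannot be told apart.

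Promoter windows of RefSeq (GRCm38.p6, 250 bases before to 50 after a start site) were found for 5 of the 9 genes. PHOX2A, ISLET1 and HB9 are homeodomain proteins, a class that binds DNA around the letters TAAT or, on the other strand, ATTA. The windows of *Esyt1* (chr10:128525810-128526109, minus strand), *Hpcal1* (chr12:17690559-17690858, plus strand) and *Cald1* (upstream chr6:34598254-34598553 and downstream chr6:34709194-34709493, plus strand), the genes named by the study for which a window was found, are shown 5′ to 3′ with TAAT and ATTA in capitals.
Esyt1: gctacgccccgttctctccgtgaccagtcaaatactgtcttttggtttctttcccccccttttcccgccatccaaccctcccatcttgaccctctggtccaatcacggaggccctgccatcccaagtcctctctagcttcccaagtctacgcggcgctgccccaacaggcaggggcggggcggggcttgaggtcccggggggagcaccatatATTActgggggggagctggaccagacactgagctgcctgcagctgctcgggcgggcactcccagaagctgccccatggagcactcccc
Hpcal1: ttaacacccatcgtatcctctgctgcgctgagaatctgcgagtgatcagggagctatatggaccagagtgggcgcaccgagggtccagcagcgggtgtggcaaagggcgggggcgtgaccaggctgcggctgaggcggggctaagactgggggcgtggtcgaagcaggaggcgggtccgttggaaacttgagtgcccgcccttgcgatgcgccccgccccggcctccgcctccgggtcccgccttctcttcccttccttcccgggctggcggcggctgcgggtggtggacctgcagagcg
Cald1 upstream: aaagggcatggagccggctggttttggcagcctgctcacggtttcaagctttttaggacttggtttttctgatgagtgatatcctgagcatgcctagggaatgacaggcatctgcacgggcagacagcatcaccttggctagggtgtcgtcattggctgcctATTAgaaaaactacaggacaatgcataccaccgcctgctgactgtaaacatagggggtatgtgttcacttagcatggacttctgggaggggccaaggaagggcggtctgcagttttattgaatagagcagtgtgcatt
Cald1 downstream: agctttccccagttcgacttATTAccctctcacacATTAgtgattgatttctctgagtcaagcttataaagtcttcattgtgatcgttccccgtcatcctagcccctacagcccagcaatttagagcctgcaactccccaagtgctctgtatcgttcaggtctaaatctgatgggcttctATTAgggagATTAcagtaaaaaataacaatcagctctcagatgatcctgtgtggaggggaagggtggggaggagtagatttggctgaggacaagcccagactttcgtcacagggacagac
*Esyt1* held 1 such match and *Hpcal1* 0, while *Cald1* held 1 in the upstream and 4 in the downstream window, against a median of 1 over all windows. At least 1 match was present in 58% of 32851 windows of this length, so its presence sets no gene apart. *Hpcal1* had 27 CpG dinucleotides and *Esyt1* had 13, against a median of 7 over all windows.

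The classical buffers were at or near the limit of detection in every group. *Calb1* (chromosome 4, 15881264 to 15908064, plus strand, GRCm38), the gene of calbindin, was listed at 0 in 13 of 24 samples and reached at most 0.732 RPKM, in spinal GFP-negative replicate 5. An estimated 65 reads lay on it over all samples, 17 of them in GFP-positive oculomotor and 16 in GFP-positive spinal samples. *Calb2* (chromosome 8, 110137502 to 110168210, minus strand), the gene of calretinin, was at 0 in 16 samples, with an estimated 22 reads in all and a highest value of 1.56 RPKM in oculomotor GFP-positive replicate 2.

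*Pvalb* (chromosome 15, 78191114 to 78206400, minus strand), the gene of parvalbumin, was at 0 in 19 of 24 samples. Its 16 estimated reads fell on 3 GFP-positive oculomotor samples, 1 GFP-positive spinal sample and 1 GFP-negative spinal sample. None fell on GFP-negative oculomotor samples, where 0 reads allowed a level of up to 0.128 RPKM over the group and of 0.462 to 2.13 RPKM in single samples (a limit of 3 reads, counting error only). Buffer levels in GFP-positive oculomotor and GFP-positive spinal cells overlapped for all 3 genes and were not tested.

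Of the sensors, *Hpcal1* (chromosome 12, 17690856 to 17791933, plus strand), which encodes a visinin-like EF-hand protein, was the most abundant of the 9 genes in each of the 4 groups. In GFP-positive oculomotor samples it ranged from 50.8 through a median of 72.7 to 80.4 RPKM, and in GFP-negative oculomotor samples from 11 through 20.4 to 43.7 RPKM. In spinal samples it ranged from 19.8 through 34.2 to 55.9 RPKM in GFP-positive and from 16.6 through 36.0 to 59.3 RPKM in GFP-negative cells. GFP-positive oculomotor samples thus lay highest, 4 of them above every GFP-positive spinal sample, and the other 3 groups overlapped one another.

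The GFP-positive difference of *Hpcal1* between the cultures was 1.01 on the log2 scale, from means of 68.5 ± 12.5 and 35.5 ± 14.3 RPKM. It was 0.87 in replicates 1 to 4, 1.28 in the deeper replicates 5 and 6, and 0.88 without spinal GFP-positive replicate 4. Within oculomotor cultures GFP-positive cells carried 2.84 times the level of GFP-negative cells, with no overlap and a higher value in 6 of 6 pairs with the same replicate number. Over all genes 4.04% lay entirely above their GFP-negative samples in oculomotor cultures, and 12% were higher in all 6 pairs. In spinal cultures the fractions were at 35.5 ± 14.3 and 35.2 ± 15.5 RPKM, with 3 of 6 pairs higher in GFP-positive cells.

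*Hpcal4* (chromosome 4, 123183227 to 123194701, plus strand), a close relative of *Hpcal1*, was at 0 in 13 of 24 samples. Of its 95 estimated reads, 75 lay in GFP-positive spinal samples, where it ranged from 0 through 0.271 to 1.12 RPKM, against 0 through 0.0293 to 0.102 RPKM in GFP-positive oculomotor samples. Only 3 spinal samples, replicates 3, 5 and 6, stood above the oculomotor range. *Ncald* (chromosome 15, 37366175 to 37792570, minus strand), the gene of neurocalcin delta, was detected in 22 of 24 samples but stayed low, at 0.893 ± 1.30 and 0.678 ± 0.292 RPKM in oculomotor and 1.03 ± 0.928 and 1.52 ± 1.27 RPKM in spinal GFP-positive and GFP-negative cells. Its GFP-positive difference changed sign between the replicate sets, from 0.36 in replicates 1 to 4 to -1.19 in replicates 5 and 6.

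None of 3 relatives of these sensors passed the test between the GFP-positive groups. Hippocalcin (*Hpca*) was at 13.6 ± 12.4 RPKM in GFP-positive oculomotor and 3.38 ± 3.73 RPKM in GFP-positive spinal samples, a log2 difference of 1.74 that did not pass the test (limma, adjusted p = 0.328). *Ncs1*, a sensor involved in transmitter release, averaged 13.3 ± 8.11 and 15.5 ± 18.9 RPKM (limma, adjusted p = 0.918). *Vsnl1* stayed below 1 RPKM on average in both (0.559 ± 0.495 and 0.523 ± 0.581 RPKM, limma, adjusted p = 0.960).

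*Camk2a*, which encodes the alpha subunit of calcium/calmodulin-dependent kinase II, a kinase of the mature synapse, was low and uneven. It ranged from 0.231 through a median of 1.44 to 14.1 RPKM in GFP-positive oculomotor samples and from 0.0524 through 0.341 to 0.851 RPKM in GFP-positive spinal samples. GFP-negative samples ranged from 0.0216 through 0.0388 to 1.49 RPKM in oculomotor and from 0.0189 through 0.289 to 3.74 RPKM in spinal cultures. The upper end of the oculomotor range was set by replicates 2, 3 and 4, which stood above every GFP-positive spinal sample, and the other 3 lay within the spinal range.

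The mean of *Camk2a* was 3.67 ± 5.31 RPKM in GFP-positive oculomotor and 0.403 ± 0.329 RPKM in GFP-positive spinal cells. The log2 difference of 1.17 fell to 0.71 without oculomotor GFP-positive replicate 4, was 1.45 in replicates 1 to 4 and 0.61 in replicates 5 and 6, and rose to 2.10 when 0.1 RPKM was added before the log in place of 1. In oculomotor cultures *Camk2a* was higher in the GFP-positive member of 6 of 6 pairs, as were 12% of all genes, although the ranges of the fractions overlapped. The difference was 0.23 to 2.60 and on average 1.28 on the log2 scale (0.83 without oculomotor GFP-positive replicate 4). In spinal cultures *Camk2a* was higher in the GFP-positive member of 3 of 6 pairs. None of the kinase's other subunits passed the test between the GFP-positive groups. *Camk2g* was the most abundant in GFP-positive cells, with oculomotor samples at 10.1 ± 5.68 RPKM and spinal samples at 8.70 ± 5.27 RPKM (limma, adjusted p = 0.914). *Camk2b* averaged 0.791 ± 0.481 RPKM in oculomotor and 2.51 ± 0.846 RPKM in spinal samples, a log2 difference of -0.97 that did not pass the test (limma, adjusted p = 0.219), and *Camk2d* averaged 1.13 ± 0.586 and 2.95 ± 3.13 RPKM (limma, adjusted p = 0.709).

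*Cald1* (chromosome 6, 34598500 to 34775473, plus strand) encodes caldesmon, which binds actin and calmodulin. Unlike *Hpcal1* and *Esyt1*, it was as high in GFP-negative as in GFP-positive oculomotor cells. GFP-positive oculomotor samples ranged from 3.13 through a median of 7.54 to 19.1 RPKM and GFP-negative ones from 3.78 through 9.50 to 13.8 RPKM, while GFP-positive spinal samples ranged from 0.620 through 1.89 to 4.06 RPKM and GFP-negative ones from 3.32 through 4.76 to 7.06 RPKM. Of the 6 GFP-positive oculomotor samples, 5 exceeded every GFP-positive spinal sample.

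Its GFP-positive difference was 1.56 on the log2 scale, from means of 9.20 ± 6.10 and 2.18 ± 1.22 RPKM, with 1.80 in replicates 1 to 4, 1.07 in replicates 5 and 6, and 1.65 without spinal GFP-positive replicate 4. Between the spinal fractions *Cald1* was lower in the GFP-positive member of 6 of 6 pairs, as were 2.6% of all genes, with means of 2.18 and 4.98 RPKM and overlapping ranges. Oculomotor pairs were split 3 to 3, with a mean difference of 0.42 in replicates 1 to 4 and -1.27 in replicates 5 and 6. The summed level of 8 mesenchyme and smooth muscle markers was 1.01 to 10.02 RPKM in GFP-positive and 10.5 to 57.3 RPKM in GFP-negative spinal samples. Most of it was *Myl9*, a myosin light chain gene, at 2.51 ± 2.41 and 30.8 ± 19.3 RPKM, the 1 marker of the 8 that passed the test (log2 difference -3.17, limma, adjusted p = 0.00945), whereas *Acta2* (-0.19), *Tagln* (0.05) and *Cnn1* (0.09) differed little. The remaining markers were lower in GFP-positive cells on average but below 1 RPKM in both fractions. These were *Col1a1* (0.119 against 0.679 RPKM), *Col1a2* (0.0225 against 0.148), *Col3a1* (0.00221 against 0.154) and *Pdgfrb* (0.0818 against 0.280). The sum was 3.40 to 20.0 RPKM in GFP-positive and 5.63 to 50.3 RPKM in GFP-negative oculomotor samples. In every group 1 or 2 of the 8 markers averaged at least 1 RPKM, and none was at 0 throughout a group. The part of such cells in the *Cald1* values was not tested.

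*Esyt1* (chromosome 10, 128509965 to 128525871, minus strand) encodes extended synaptotagmin 1, which tethers the ER to the plasma membrane in a calcium-dependent way. It ranged from 9.14 through a median of 17 to 28.8 RPKM in GFP-positive oculomotor samples and from 0.799 through 1.74 to 3.27 RPKM in GFP-negative ones. Spinal samples ranged from 3.61 through 6.06 to 13.4 RPKM in GFP-positive and from 0.894 through 2.27 to 4.11 RPKM in GFP-negative cells. GFP-positive cells were thus higher in both cultures, and within the GFP-positive cells 3 oculomotor samples exceeded every spinal sample. The study also reports ESYT1 protein as higher in oculomotor than in spinal motor neurons, and protein was not measured here.

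The means of *Esyt1* in GFP-positive cells were 18.2 ± 9.0 and 6.85 ± 3.43 RPKM, a log2 difference of 1.25, with 1.46 in replicates 1 to 4 and 0.83 in replicates 5 and 6. Between oculomotor fractions the ratio of means was 9.26, with no overlap and 6 of 6 pairs higher in GFP-positive cells. Over all genes 4.04% lay entirely above in this way, and 12% were higher in all 6 pairs. In spinal cultures the ratio was 2.74, again with 6 of 6 pairs higher, as for 2.46% of all genes, and the ranges overlapped, where 0.0721% of genes lay entirely above. The step from the GFP-negative to the GFP-positive fraction was 1.98 to 3.45 on the log2 scale over the oculomotor pairs and 0.48 to 2.44 over the spinal pairs. The difference between these steps was not tested, because the GFP-positive samples served to choose the gene. Of its paralogs, *Esyt2* was at 9.97 ± 2.59 RPKM in GFP-positive oculomotor and 4.89 ± 2.13 RPKM in GFP-positive spinal cells (log2 difference 0.94, limma, adjusted p = 0.255), and *Esyt3* was near 0 (0.0254 ± 0.0621 and 0.146 ± 0.210 RPKM).

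**Figure D1:**
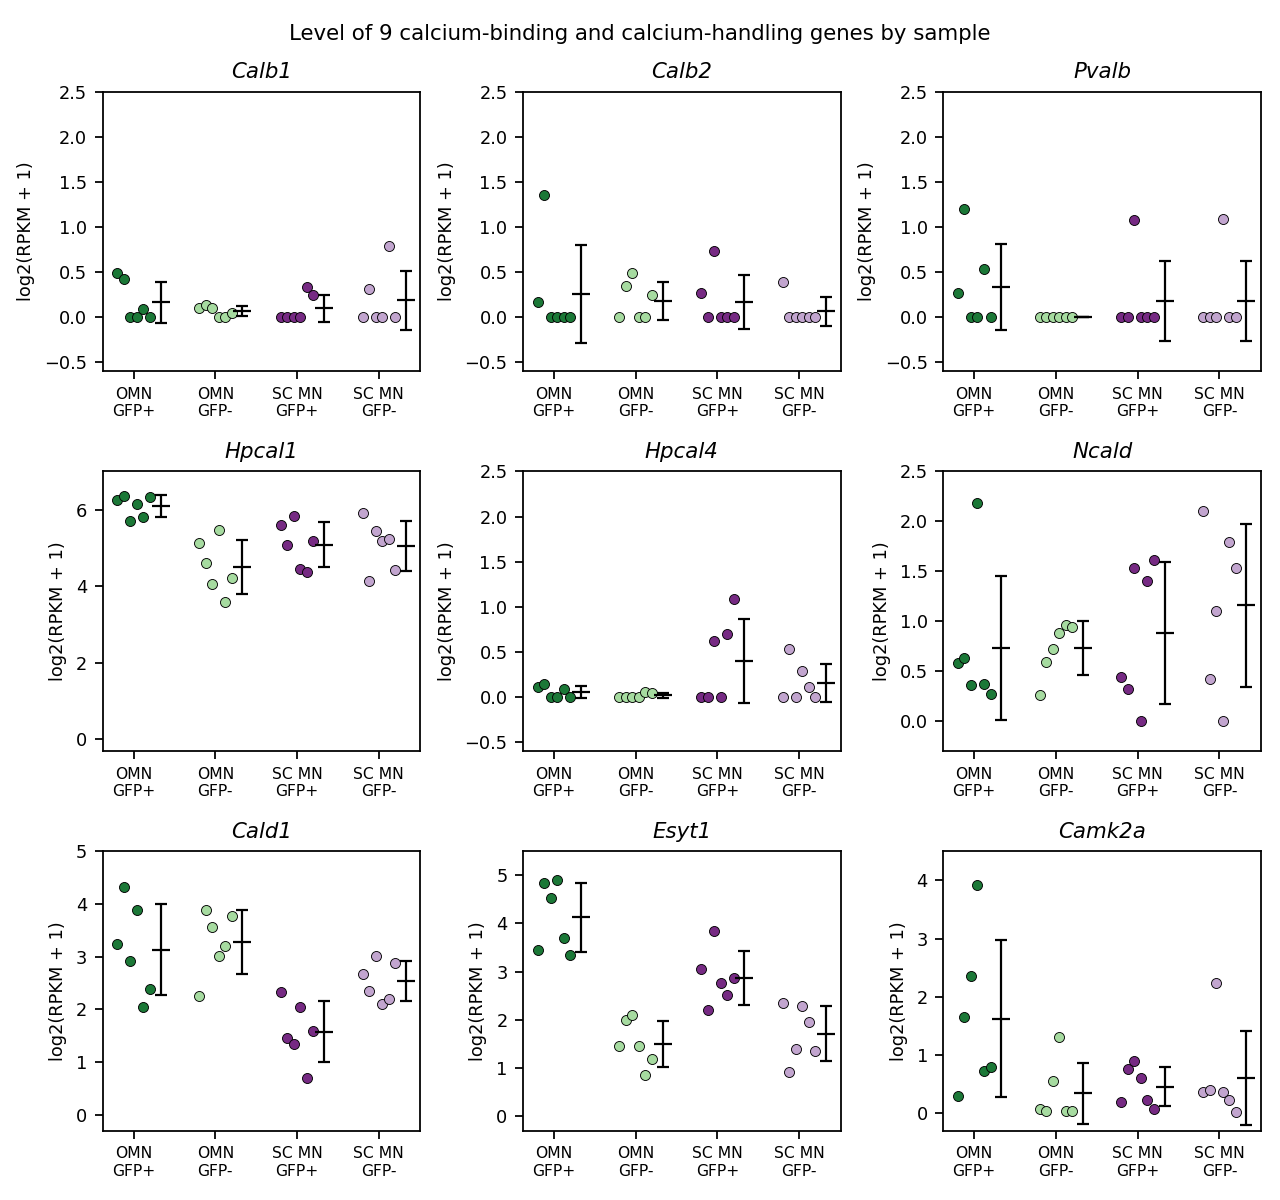
Level of each of the 9 genes as log2(RPKM + 1) in the 24 samples, by group: oculomotor (OMN) and spinal (SC MN) cultures, GFP-positive (GFP+) and GFP-negative (GFP-), with replicates 1 to 6 from left to right and the mean ± SD beside them. *Calb1*, *Calb2*, *Pvalb* and *Hpcal4* lie at or near 0 in most samples, and *Hpcal1* is the most abundant, at 50.8 to 80.4 RPKM in GFP-positive oculomotor samples.

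In the GFP-positive comparison 0 of the 9 genes had groups that did not overlap, as 0.733% of genes had with oculomotor and 0.697% with spinal samples above. Of 6 neuronal markers 5 had a higher mean log2 level in oculomotor samples and *Map2* a lower one (-0.53), and of 6 motor neuron markers 3 had a higher and 3 a lower one (*Isl2* -0.59, *Prph* -0.58, *Slc5a7* -0.47). None of the 12 passed the test. Of 8 mesenchyme and smooth muscle markers 7 had a higher and 1 a lower mean log2 level in oculomotor samples. Of 6 pluripotency markers 0 had a higher and 6 a lower one, and of 5 endoderm markers tested 1 and 4. None of these passed either. The sum of the 6 neuronal markers, all of which averaged at least 1 RPKM in both groups, had a median of 1536 RPKM in oculomotor and 838 RPKM in spinal samples. The sum of 6 motor neuron markers was 189 to 392 RPKM in oculomotor and 21.8 to 256 RPKM in spinal samples, with no marker at 0 throughout a group. Most of it was *Isl1* (oculomotor mean 249 ± 77.8 RPKM, spinal mean 74.3 ± 43.8 RPKM). The *Isl1* reporter sorted the oculomotor cells only, so this sum cannot compare the motor neuron content of the 2 groups. *Slc18a3* (38.8 against 24.4 RPKM) and *Chat* (6.77 against 3.45 RPKM) also averaged higher in oculomotor samples, and *Isl2*, *Prph* and *Slc5a7* lower. The part of cells with any of these markers in the differences of *Hpcal1*, *Cald1*, *Esyt1* and *Camk2a* was not tested. Without spinal GFP-positive replicate 4, the lowest in both sums, the 4 differences were 0.88, 1.65, 1.23 and 1.20.

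**Figure D2:**
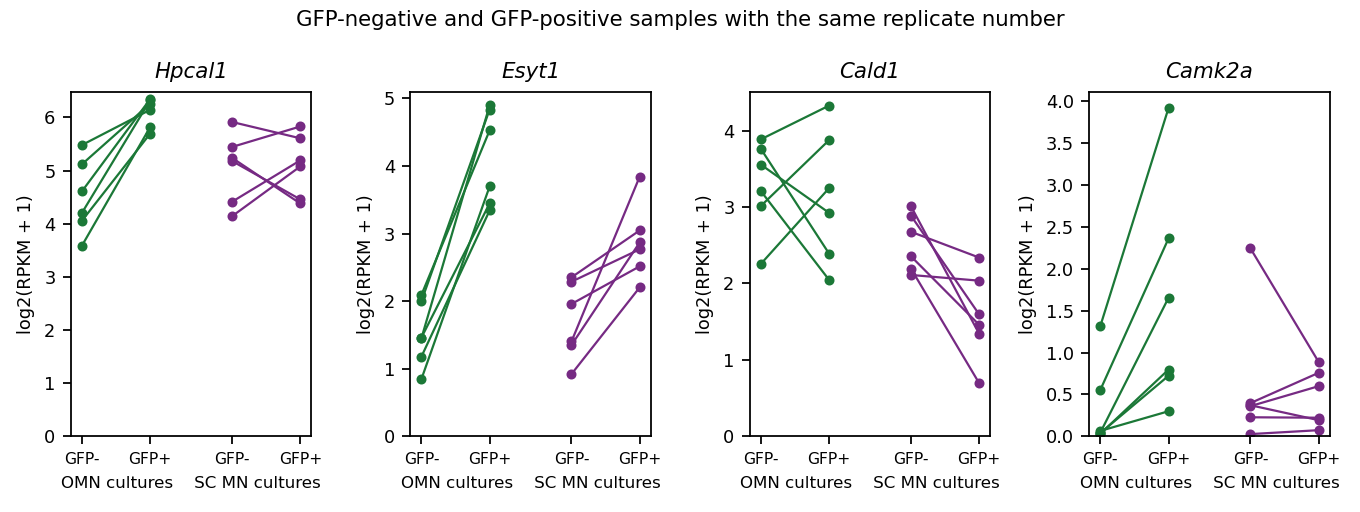
GFP-negative and GFP-positive samples with the same replicate number joined by a line, as log2(RPKM + 1), for the 4 genes named by the study, in 6 oculomotor (green) and 6 spinal (purple) pairs. *Esyt1* rises from GFP-negative to GFP-positive cells in 6 of 6 pairs of both cultures, *Hpcal1* and *Camk2a* do so in 6 of 6 oculomotor and 3 of 6 spinal pairs, and *Cald1* is lower in GFP-positive cells in 6 of 6 spinal pairs. Of all genes, 12% rise in 6 of 6 oculomotor pairs, 2.46% rise in 6 of 6 spinal pairs and 2.6% fall in 6 of 6 spinal pairs.

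The GFP-negative samples were not part of the comparison for which the study names *Hpcal1*, *Cald1*, *Esyt1* and *Camk2a*, and all 9 genes were tested there. The 9 were chosen with earlier results of these data known, so the test is not independent of that choice. None passed the test, against 0.96% of 22179 genes (limma on all 24 samples, Benjamini-Hochberg adjustment, threshold 0.05), and 0 had an unadjusted p under 0.05. None had groups that did not overlap, as 0.397% of genes had with oculomotor and 0.87% with spinal samples above. *Cald1* came nearest, with a log2 difference of 0.74 (95% interval -0.02 to 1.5, adjusted p = 0.456) between oculomotor means of 9.37 ± 3.73 RPKM and spinal means of 4.98 ± 1.55 RPKM, and 5 of 6 oculomotor samples exceeded every spinal sample. *Hpcal1* differed by -0.55 (95% interval -1.24 to 0.15, adjusted p = 0.562), *Esyt1* by -0.21 (95% interval -0.93 to 0.51, adjusted p = 0.865) and *Camk2a* by -0.26 (95% interval -1.23 to 0.70, adjusted p = 0.875). All 3 intervals included 0, and the estimate became 0.0649 for *Camk2a* without spinal GFP-negative replicate 3 and 0.0097 for *Esyt1* in replicates 1 to 4. *Ncald* differed by -0.43 (adjusted p = 0.706), and the 3 buffers and *Hpcal4* by -0.18 to 0.11 (adjusted p = 0.735 to 0.858).

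**Figure D3:**
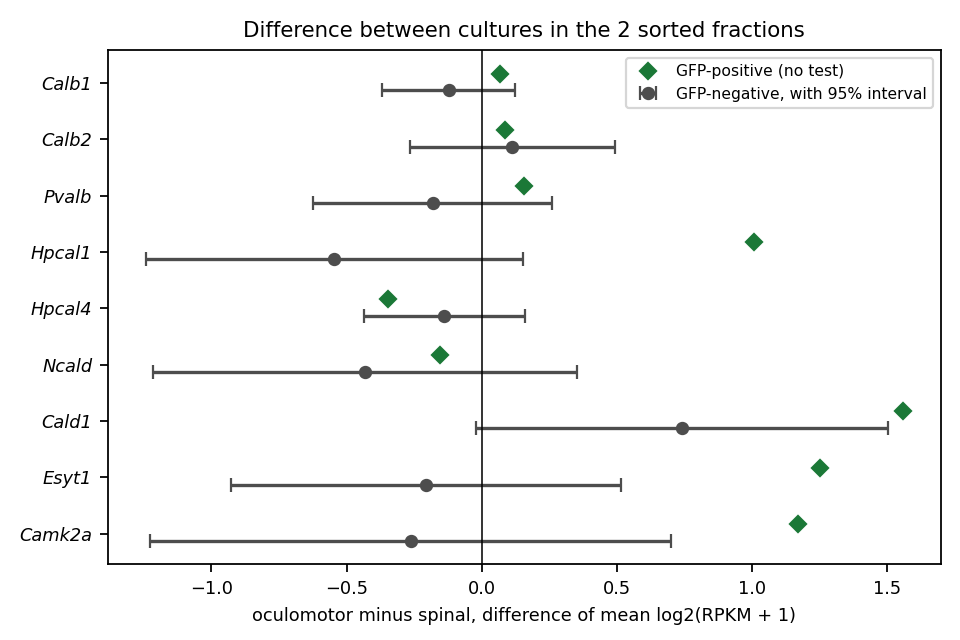
Difference of mean log2(RPKM + 1) between oculomotor and spinal cultures for each gene, in GFP-positive cells (green diamonds, no test) and in GFP-negative cells (grey circles with the 95% interval of the limma fit). All 9 intervals include 0, and *Cald1* lies farthest right in both fractions, at 1.56 and 0.74.

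For the 5 genes that the study does not name as higher in oculomotor neurons, the fractions of each culture could also be tested, and none passed in either culture. Over all genes 6.15% passed between the oculomotor and 1.23% between the spinal fractions. The largest of the 10 log2 differences were 0.34 for *Pvalb* between oculomotor fractions (limma, adjusted p = 0.469), -0.27 for *Ncald* between spinal fractions (limma, adjusted p = 0.882) and 0.25 for *Hpcal4* between spinal fractions (limma, adjusted p = 0.594). All 3 were smaller than the SD of the more variable of the 2 fractions.

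Of 160 further calcium genes in 12 roles, 158 were in the table. Between GFP-positive oculomotor and spinal cells 0 of the 155 that could be tested passed, against 0.603% of all genes, and 23 had an unadjusted p under 0.05 (limma), as did 10.1% of all genes. The study's own DESeq2 test of these 2 groups called more genes than the limma test used here, so the 0 calls do not show equal levels. The median log2 difference of the calcium genes was -0.01, against -0.04 over all genes. In GFP-negative cells 3 of 158 passed as higher and 2 as lower in oculomotor samples, against 0.41% and 0.55% of all genes. *Camk2n1*, which encodes an inhibitor of calcium/calmodulin-dependent kinase II, was lower in oculomotor samples without overlap, at 1.57 ± 0.537 against 9.57 ± 3.27 RPKM (log2 difference -2.01, SE 0.32, limma, adjusted p = 0.00172). The other 4, chosen for naming after their values were seen, were the potassium channel partner *Kcnip3*, the junctophilin *Jph1* and the calponin *Cnn1*, which were higher, and the EF-hand gene *S100g*, which was lower. Of these 5, only *Camk2n1* passed whichever of the 24 samples was left out, and 18 of the 24 samples left 1 to 3 calls when omitted. In GFP-positive cells *Camk2n1* averaged 8.42 ± 3.44 RPKM in oculomotor and 22.4 ± 10.6 RPKM in spinal samples (log2 difference -1.25, limma, adjusted p = 0.210).

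Between the oculomotor fractions 14 of 158 calcium genes were higher and 5 lower in GFP-positive cells, against 3.81% and 2.34% of all genes. The 8 largest increases without overlap were led by *Gap43*, a calmodulin-binding protein of growth cones (959 ± 843 against 5.85 ± 3.73 RPKM, log2 difference 6.82, limma, adjusted p = 5.21e-05). They also held the vesicle proteins *Syt4* (4.52), *Syt11* (3.30) and *Doc2b* (1.71), the hippocalcin gene *Hpca* (3.32), *S100a16* (3.08), *Camk2n1* (1.81) and the calcineurin regulator *Rcan2* (1.62), with the log2 difference in parentheses. *Rcan2* kept its call in 9 of 24 fits with a sample left out. *Itpr1*, a channel that releases calcium from the ER, fell by 1.19 and *Jph1*, which links the ER to the plasma membrane, fell by 1.12 on the log2 scale, both without overlap, as 2.48% of all genes did. By role, 4 of 20 kinase and calcineurin genes, 4 of 28 synaptotagmin, C2 and annexin genes and 2 of 12 sensor genes rose, and differences between roles were not tested. All 6 neuronal markers also rose, with sums of 1172 to 1722 RPKM in GFP-positive and 15.6 to 57.8 RPKM in GFP-negative samples, and 5 of 6 pluripotency and 3 of 6 endoderm markers fell. The 3 were *Foxa2*, *Cdh1* and *Epcam*, while *Sox17* (limma, adjusted p = 0.422), *Afp* (0.418) and *Ttr* (0.0547) did not pass. The part of cells with any of these markers in the calcium genes' differences was not tested. With the pairs of fractions as a block, 41 of the 158 passed in place of 19, and the share of all genes rose from 6.15% to 16.4%.

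Between the spinal fractions 5 of 158 passed and all were lower in GFP-positive cells, where 0.397% of all genes were higher and 0.83% lower. The EF-hand gene *S100a1* (18.5 ± 16.9 against 210 ± 222 RPKM, log2 difference -3.78), the calcium-activated actin-severing gene *Gsn* (1.71 ± 0.515 against 12.8 ± 12.1 RPKM, -1.92) and the ER lumen gene *Rcn1* (12.2 ± 4.18 against 41.5 ± 18.5 RPKM, -1.65) did not overlap between fractions, as 0.397% of all genes did not in this direction, and *S100g* (-4.67) and *S100a13* (-2.01), named after their values were seen, did. The sum of 6 endoderm markers was 3.02 to 70.5 RPKM in GFP-positive and 69.3 to 314 RPKM in GFP-negative spinal samples, with no marker but *Afp* at 0 throughout a group, and *Sox17* (-2.40, limma, adjusted p = 0.000397) and *Ttr* (-3.44, limma, adjusted p = 0.0325) fell. The part of such cells in the calcium genes' differences was not tested. The call count was 16 with the pairs as a block, where 2.93% of all genes passed, and 0 in replicates 1 to 4 alone (limma, 25 with an unadjusted p under 0.05), where 0.00478% of all genes passed. It was 17 without spinal GFP-positive replicate 4, where 2.88% of all genes passed, 3 without spinal GFP-positive replicate 2 or 5, 2 without spinal GFP-negative replicate 1, and 1 without spinal GFP-positive replicate 3 or spinal GFP-negative replicate 6. The interaction of culture and fraction passed for 0 of 158 genes (limma, 15 with an unadjusted p under 0.05), against 0.32% of all genes, for 6 with the pairs as a block, and for 5 without spinal GFP-negative replicate 4. Its smallest adjusted p values were those of *S100a13* (3.01, adjusted p = 0.0636), *Gsn* (2.70, adjusted p = 0.0685) and *Hpca* (2.64, adjusted p = 0.129).

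**Figure D4:**
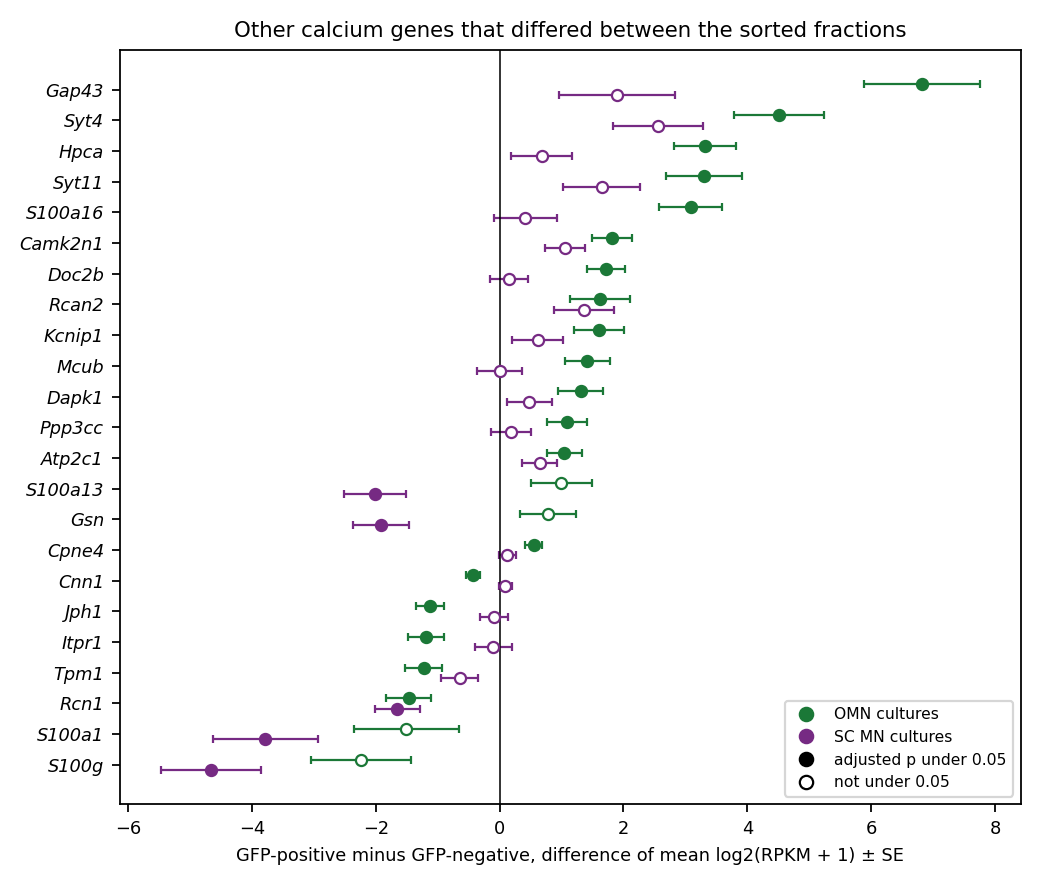
Difference of mean log2(RPKM + 1) ± SE between GFP-positive and GFP-negative cells in oculomotor (green) and spinal (purple) cultures for the 23 further calcium genes that passed the test (limma, filled circles) in at least 1 culture. *Gap43* leads on the right with 6.82 in oculomotor cultures, and *S100g* lies farthest left with -4.67 in spinal cultures.

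Across the 24 samples the levels of *Hpcal1* and *Esyt1* went together (Pearson's r = 0.74 on log2(RPKM + 1)), and those of *Esyt1* and *Camk2a* less so (r = 0.57), while *Cald1* was nearly unrelated to *Hpcal1* (r = 0.06) and *Esyt1* (r = 0.07). Among 13546 genes with a group mean of at least 1 RPKM, the genes most like *Esyt1* were *C1ql1* (r = 0.95), *Galnt9* (r = 0.94) and *Npr2* (r = 0.93), and those most like *Camk2a* were *Plxnd1* (r = 0.93), *Pex5l* (r = 0.90) and *Gm42876* (r = 0.89). For *Hpcal1* they were *Gamt* (r = 0.86), *Aacs* (r = 0.85) and *Tmem41a* (r = 0.84), for *Cald1* they were *Ramp2* (r = 0.81), *Nek9* (r = 0.78) and *Baiap2l1* (r = 0.77), and for *Ncald* they were *Tmem35a* (r = 0.74), *Tpbgl* (r = 0.73) and *Opn3* (r = 0.72). These values describe the same 24 libraries, in which group and depth differ together with the genes, and *Hpcal1*, *Cald1*, *Esyt1* and *Camk2a* were chosen for being high in 6 of them, which favours positive values among these 4.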

How the data were processed

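RNA from 24 sorted samples (4 groups of 6, grouped by their titles) was sequenced by the authors as SMART-seq2 libraries cut with Tn5, without molecular identifiers. The submitters' processing notes name HISAT2 2.0.3, DESeq2 1.12.4 and the builds mm10 and GRCm38, and the authors computed RPKM with rpkmforgenes; the gene annotation was not given in the sources used here. The deposited table holds RPKM per gene and sample, with no read counts. RPKM divides by the total, so a few very high genes lower the values of all others.

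The 9 genes, the list of further calcium genes and the lists of neuronal, motor neuron, oculomotor, spinal motor neuron, pluripotency, endoderm and mesenchyme markers were chosen with earlier results of these data known. Depth was estimated from the steps of low RPKM values (1 read gives a fixed step), and 96.0% to 97.9% of values under 10 reads lay within 2% of a whole number. Reads on single genes use the smallest step that gave whole reads within 3% for values under 12 reads, could be had for 6 of the 9 genes, and are estimates. Limits of 3 reads cover counting error only.

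Values were compared as log2(RPKM + 1) with limma 3.58.1 in R 4.3.3 (moderated variances following the mean level, Benjamini-Hochberg adjustment over all genes tested, threshold 0.05). Genes above 0 RPKM in at least 2 fitted samples were tested. The GFP-positive comparison used those 12 samples, and the others all 24 samples in 4 groups. The code was tested on simulated data. Named were the 9 genes, their paralogs, the genes of the list that passed and did not overlap (at most 8 per direction and comparison, by size), and the 3 genes most correlated with each member that averaged at least 1 RPKM in a group. Positions come from GENCODE M21 on GRCm38, and that of 1 gene is not reported here. Tables were made with Python 3.11.15, numpy 2.4.6 and pandas 2.3.3, and figures with matplotlib 3.10.9.

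Samples of both fractions that share a culture and a number were taken as pairs from a check on the data. Over genes, what remained of each sample after subtracting its group mean was correlated within 6 of 6 pairs per culture. Here r ran from 0.39 to 0.76 for oculomotor and from 0.43 to 0.67 for spinal pairs. Samples of the same fraction and number from different cultures cannot be pairs, yet r was 0.59 to 0.73 at numbers 5 and 6. It was 0.37 and 0.48 at number 3, and at most 0.14 at the other numbers. At numbers 5 and 6 the correlation therefore cannot tell pairs from samples sharing only a replicate number, and pairing there is an assumption. Main fits were made without the replicate block, which was added as an alternative. Other alternatives were the offset, the scaling, the filter, sample weights, the samples fitted and leaving out single samples.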

Additional observations from a re-analysis of the deposited data

Results flagged for a closer look

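Of 35 groups of 6 values tested, 7 had a highest sample far from the other 5 by Dixon's criterion, and chance flags about 1 in 20 for normally spread values. That rate does not hold for the groups with 5 samples at 0 (*Calb2* in spinal GFP-negative cells and *Pvalb* in both spinal groups), which any value above 0 in the sixth sample flags. *Calb2* was at 1.56 RPKM in oculomotor GFP-positive replicate 2, at 0.663 RPKM in spinal GFP-positive replicate 3 and at 0.314 RPKM in spinal GFP-negative replicate 1, values that rest on an estimated 10, 2 and 2 reads. *Pvalb* reached 1.11 RPKM in spinal GFP-positive replicate 3 and 1.13 RPKM in spinal GFP-negative replicate 4, on an estimated 2 and 5 reads, with the other 5 samples of each group at 0. *Ncald* was at 3.54 RPKM in oculomotor GFP-positive replicate 4, on an estimated 35 reads, where the other 5 samples reached at most 0.544 RPKM. *Camk2a* was at 3.74 RPKM in spinal GFP-negative replicate 3, the sample with the lowest depth, on an estimated 21 reads. Oculomotor GFP-positive replicate 4 was also the highest of its group for *Camk2a*, at 14.1 RPKM.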

How the results depend on the processing

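None of the 9 genes passed a test in which it was entered under any of 33 settings, with the lowest adjusted p at 0.153 between GFP-negative cells, 0.124 between oculomotor and 0.0756 between spinal fractions. The GFP-positive differences of *Hpcal1*, *Cald1*, *Esyt1* and *Camk2a* kept their sign under the alternatives run, while that of *Camk2a* ran from 0.71 without oculomotor GFP-positive replicate 4 to 2.10 with an offset of 0.1 RPKM. That offset gave 0.30 for *Calb1*, 0.72 for *Pvalb* and -1.10 for *Hpcal4* in GFP-positive cells, and 2.78 for *Camk2a* between oculomotor fractions; the cause was not tested.

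Signs turned, without a call on either side, for *Calb1* (0.0045) and *Esyt1* (0.0097) between GFP-negative cells and for *Hpcal4* between spinal fractions (-0.0480) in replicates 1 to 4, for *Calb2* (-0.0843 with the smaller offset, -0.0030 with weights) and *Ncald* (-0.18 with the smaller offset, -0.0375 with scaling, -0.20 with weights) between oculomotor fractions, and for *Pvalb* between spinal fractions (0.0063 with scaling, 0.0652 with weights, 0.18 without spinal GFP-negative replicates 2 and 4, the last chosen after seeing the data, which also put *Pvalb* at 0 between GFP-negative cells). Leaving out single samples gave -0.16 to 0.00038 for *Calb1*, -0.22 to 0 for *Pvalb* and -0.46 to 0.0649 for *Camk2a* between GFP-negative cells, -0.15 to 0.14 for *Calb2* and -0.29 to 0.10 for *Ncald* between oculomotor fractions, and -0.13 to 0.0335 for *Calb1*, -0.0120 to 0.17 for *Calb2* and -0.18 to 0.18 for *Pvalb* between spinal fractions.

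Calls among the 158 further calcium genes varied between settings, as did the share of all genes called, which ran under these settings from 2.27% to 17.1% between oculomotor fractions, from 0.00478% to 2.93% between spinal fractions and from 0.186% to 2.93% between GFP-negative cells. With the replicate block they were 10 between GFP-negative cells, 29 between oculomotor fractions, 8 between spinal fractions and 4 for the interaction, and with the pairs of fractions as a block 41, 16 and 6 for the last 3. Weights gave 11, 40, 9 and 4. Replicates 1 to 4 alone gave 1, 9 and 0 for the first 3. Scaling gave 3 between GFP-negative cells and 8 between spinal fractions, a filter at a group mean of 1 RPKM gave 10 between spinal fractions and 2 for the interaction, the smaller offset gave 1 for the interaction, the 12 GFP-negative samples alone gave 2, all 24 samples gave 2 between GFP-positive cells, and leaving out spinal GFP-negative replicates 2 and 4 gave 10 between GFP-negative cells and 5 for the interaction. Without single samples the counts stayed at 0 between GFP-positive cells (limma, 16 to 27 with an unadjusted p under 0.05) and ran from 1 to 6 between GFP-negative cells, 16 to 22 and 1 to 17 between oculomotor and spinal fractions, and 0 to 5 for the interaction. Shallow samples limit genes below about 1 RPKM.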
